A study of Drosophila melanogaster with 6 samples.

Results

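The genes described are 7 lipase genes of Drosophila melanogaster that include magro (mag): mag, Lip1, Lip2, Lip3, Lip4, brummer (bmm) and Hsl. They were listed by name, and a member was read where the platform annotation gives it a probe set of its own. That held for 6 of the 7, each with 1 probe set, out of 11982 genes with such a probe set. Hsl, which encodes the hormone-sensitive lipase, had none and was not analysed here. The list was drawn up with earlier results of these arrays known, and mag was chosen by its lower signal on the mutant-labelled arrays; the other members were listed as named lipase genes beside it. The difference of mag is therefore given as a description, without a test.

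RNA of whole larvae of instar 1 was hybridised to 6 Affymetrix arrays. Wild type larvae gave 3 arrays and larvae labelled as mutant for Pof, with the allele D119 in the title of the study, gave the other 3. Each array is labelled as a separate biological replicate from a pool of 200 larvae, with sexes and tissues mixed. The stocks, the nature of the allele and the hours of age within the instar are not stated.

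Lipases cut fatty acids from triacylglycerols and other lipid esters. In the fly, mag is known as a lipase of the midgut that digests dietary triacylglycerol and cholesterol esters and is a target of the nuclear receptor Hr96, while bmm and Hsl act inside cells on the fat stored in lipid droplets of the fat body. Proteins of the acid lipase family, to which mag and Lip1 to Lip4 belong, are related to the gastric and lysosomal lipases of mammals, and Lip3 is known as a gene induced by starvation.

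Values are on the log2 scale, 1 for each probe set, where a difference of 1 is a 2-fold change, and differences are mutant-labelled minus wild type. A call is an adjusted p under 0.05 in limma over all 18769 probe sets. Array medians lay between 6.46 and 6.56 and lower quartiles between 5.11 and 5.24. Pof gave a higher signal on the arrays labelled as mutant, 8.41 ± 0.05 against 6.80 ± 0.05 (SD, n = 3), a limma difference of 1.61 (SE 0.07, adjusted p = 9.47e-05). The position of its probe set relative to the allele is not given, so it does not check the labels, and every direction below rests on them. Wild type replicate 1 stood apart from the other wild type arrays: the SD of its difference from them over all probe sets was 0.43 for each, against 0.13 between wild type replicates 2 and 3. Pof mutant replicate 2 stood out on the control probe sets of actin, GAPDH and eIF-4a, whose 3' signal exceeded the 5' signal by 2.03 on average there and by 1.20 to 1.48 on the other arrays. Some of the counts below are also given without these arrays. In whole larvae, fewer cells of a type and less RNA per cell cannot be told apart.

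The digestive lipase mag had the largest difference of the 6 measured lipase genes, and it was lower on the mutant-labelled arrays. Its wild type values were 9.71, 9.10 and 9.08, and its values on the mutant-labelled arrays were 8.15, 8.22 and 7.84. The highest mutant-labelled array thus lay below the lowest wild type array, and wild type replicate 1 was the highest of all. The group means were 9.30 ± 0.35 and 8.07 ± 0.20 (SD, n = 3), a difference of -1.23 (SE 0.19), or 2.34-fold lower. Without wild type replicate 1 the difference was -1.02, and over all single arrays left out it ran from -1.33 to -1.02. It met the threshold of a call with all 6 arrays, but not without Pof mutant replicate 1 (-1.27) or replicate 3 (-1.11). Since mag was chosen by this difference, the call is part of the description and no test.

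**Figure D1:**
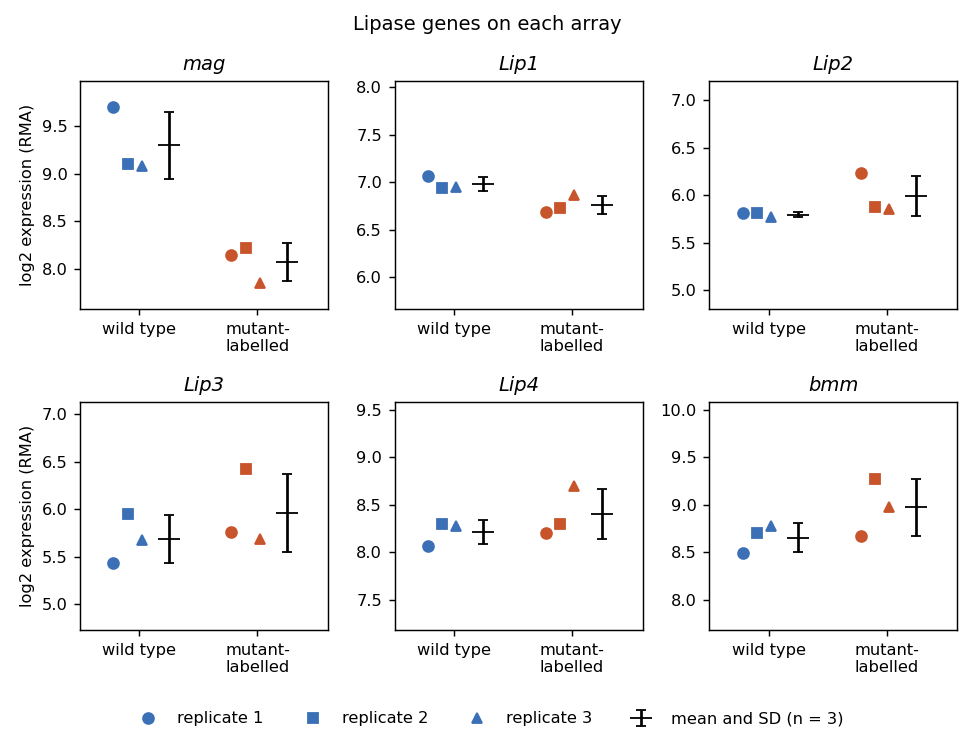
Log2 expression (RMA) of the 6 measured lipase genes on each array, with wild type in blue, mutant-labelled in orange, symbols for replicates 1 to 3, and the mean with its SD (n = 3) in black; panels differ in their range on the vertical axis. All mutant-labelled values of mag, 7.84 to 8.22, lie below the wild type values, 9.08 to 9.71, and the groups overlap for Lip3, Lip4 and bmm.

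Lip1 and Lip2, acid lipase genes that lie next to each other on arm 2L, differed by small amounts in opposite directions, and neither was called. Lip1 read 7.07, 6.93 and 6.95 in wild type and 6.68, 6.73 and 6.86 on the mutant-labelled arrays, with no overlap of the groups. Its difference was -0.23 (SE 0.08, 95% interval -0.41 to -0.04, adjusted p = 0.255). Lip2 read 5.81, 5.81 and 5.76 in wild type against 6.24, 5.88 and 5.85. The groups did not overlap here either, but 1 array, Pof mutant replicate 1, carried most of the difference of 0.20 (SE 0.11, 95% interval -0.07 to 0.46, adjusted p = 0.535), which was 0.07 without it. The values of Lip2 lay below the median of every array.

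The starvation-induced gene Lip3 was dim and varied as much within the groups as between them. It read 5.44, 5.95 and 5.67 in wild type and 5.76, 6.43 and 5.68 on the mutant-labelled arrays, so that the groups overlapped and Pof mutant replicate 2 was the highest. Its difference of 0.27 (SE 0.22, 95% interval -0.24 to 0.78, adjusted p = 0.698) became 0.03 without that array and -0.09 without both that array and wild type replicate 1. The lipase gene Lip4 read 8.06, 8.29 and 8.28 against 8.20, 8.29 and 8.70. Again the groups overlapped, with a difference of 0.19 (SE 0.14, 95% interval -0.14 to 0.51, adjusted p = 0.671), which was 0.04 without Pof mutant replicate 3, the highest array.

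For bmm, the fly homologue of adipose triglyceride lipase, the values were 8.49, 8.70 and 8.77 in wild type and 8.67, 9.27 and 8.98 on the mutant-labelled arrays. Pof mutant replicate 1 lay within the wild type range, and the other mutant-labelled arrays lay above it. The difference of 0.32 (SE 0.16, 95% interval -0.05 to 0.69, adjusted p = 0.458) fell to 0.17 without Pof mutant replicate 2. On that same array bmm and Lip3 both had their highest value, and its larger 3' minus 5' difference is given above. Its part in these values was not tested.

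Of the 6 measured lipase genes, 0 were called higher and 1, mag, was called lower. Over all 11982 genes 4.09% were called, 2.65% higher and 1.44% lower. The groups did not overlap for 3 of the 6 (mag and Lip1 lower, Lip2 higher), against 22.4% of all genes, 14.5% higher and 7.95% lower. Since the list was built around mag, nothing is read from these shares. The median difference of the 6 genes was 0.19, against 0.02 over all genes. That median was 0.13 without wild type replicate 1, 0.10 without Pof mutant replicate 2 and -0.0027 without both.

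None of the genes beside mag on arm 3L was called. These were the 3 closest measured genes to the left and the 3 to the right. The gene before it, atk, differed by 0.03 (SE 0.10, adjusted p = 0.958) and the gene after it, Tdh, by -0.06 (SE 0.11, adjusted p = 0.893). The remaining neighbours were CG5910 (0.07), CG5199 (0.05), CG32428 (-0.03) and CG5969 (0.28, adjusted p = 0.314). Only CG5969 had groups that did not overlap, with the mutant-labelled arrays higher.

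The profile of mag over the 6 arrays was matched most closely by Mthfs, Sgsh, Fatp, CG13043 and Npc2b, ranked by the root mean square difference of the log2 values after each gene's own mean was subtracted. That distance was 0.11 for Mthfs, named for methenyltetrahydrofolate synthetase of folate metabolism. For Sgsh, named for a lysosomal sulfatase, it was 0.19. Fatp, named for fatty acid transport proteins, and CG13043 lay at 0.20 each, as did Npc2b, of a family of sterol-binding proteins. Like mag, each of the 5 had its highest value on wild type replicate 1: 9.91 for Mthfs, 7.83 for Sgsh, 9.11 for Fatp, 11.5 for CG13043 and 10.3 for Npc2b. Their differences, between -1.27 for Mthfs and -0.88 for Npc2b, follow from the way they were picked and were not tested further.

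Markers of the tissues were read beside the lipases, because mag is a midgut gene and bmm acts in fat body. Of the midgut markers, mostly genes of digestive proteases, 13 of 16 were measured, and 6 of these were called higher and 1 lower. That is 53.8% called, against 4.09% of all genes, 2.65% higher and 1.44% lower. The list was written with earlier results of these arrays known. Its genes are also bright, with list medians of 11.87 to 12.61 on the arrays. The share is thus given as a description. The serine protease genes Jon44E and betaTry, for example, differed by 1.31 (SE 0.15, adjusted p = 5.84e-03) and 1.03 (SE 0.17, adjusted p = 0.0214), while the related Jon25Bi fell by 0.61 (adjusted p = 0.0356). The list median was 0.06, with 8 markers above 0 and 5 below, among the latter the maltase gene Mal-A6 at -0.91 (adjusted p = 0.287), the maltase gene Mal-A1 at -0.37 and the trypsin gene alphaTry at -0.29. The log2 of the summed midgut signal was 16.10 to 16.15 in wild type and 16.25 to 16.48 on the mutant-labelled arrays, a sum carried by the brightest probe sets. Without wild type replicate 1, 6 midgut markers were called higher and 2 lower, the second being Mal-A6 (-1.23, adjusted p = 0.0474), and the same counts held without both that array and Pof mutant replicate 2. Without Pof mutant replicate 2 alone, as without wild type replicate 2, 3 were called higher and 0 lower, and without wild type replicate 3 the counts were 4 and 0. Calls over all genes moved too, from 490 to 536 without wild type replicate 1 and 712 without both it and Pof mutant replicate 2. They numbered 300 without Pof mutant replicate 2, 202 without wild type replicate 2 and 219 without wild type replicate 3. The part of the midgut signal in the level of mag was not tested.

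Of the fat body markers, 8 of 12 were measured and 0 were called, with 2 at an unadjusted p under 0.05, both higher. In the fit without wild type replicate 1, 1 marker was called higher, and likewise without both that array and Pof mutant replicate 2. The log2 of the summed fat body signal was 14.70 to 14.81 in wild type and 14.85 to 14.92 on the mutant-labelled arrays. The brightest probe sets carried this sum: FASN1 and bgm differed by -0.02 and 0.02, and apolpp, a gene of chromosome 4, by 0.40 (adjusted p = 0.0714). Fbp1 and Fbp2 lay below the median of every array. Of the cuticle markers, 10 of 15 were measured, and 0 were called higher and 1 lower (10% called, against 4.09% of all genes). The groups did not overlap for 5 of them (50%), all lower, against 22.4% of all genes, 7.95% lower. In limma 5 had an unadjusted p under 0.05, again all lower, as had 2009 of all 11982 genes in either direction. The median difference of the cuticle markers was -0.75, in the same direction as that of mag, and -0.07 without wild type replicate 1. Their log2 summed signal was 15.67 on wild type replicate 1, 14.21 and 14.25 on the other wild type arrays and 13.84 to 14.10 on the mutant-labelled arrays. The array with the highest mag signal was thus also the one with the highest cuticle signal, and the part of this in the level of mag was not tested. No marker in these lists has a value of 0 on this scale, and the lowest was 4.58.

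Beyond the members, 55 other lipase genes were read, and 5 of them were called, 4 higher and 1 lower. That is 9.09%, against 4.09% of all genes. The other 50 were not called, and the median difference of the 55 was 0.00. The 55 were listed by family and need not all be active lipases. Yp1, Yp2, Yp3 and puml, for example, are among those not called. Without wild type replicate 1 the counts were 4 higher and 2 lower, and without Pof mutant replicate 2 they were 4 higher and 0 lower. Without both arrays they were 4 higher and 3 lower. Over all genes 318 were called higher and 172 lower with all arrays. Those counts were 311 and 225 without wild type replicate 1 and 187 and 113 without Pof mutant replicate 2. Without both arrays they were 379 and 333, so calls rose over all genes as well. Among 18 further genes of the acid lipase family, 1 was called higher and 1 lower, or 11.1%. Of the 18, 6 lay below the lower quartile on every array.

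The acid lipase gene CG2772 rose. It read 8.15, 8.12 and 8.35 in wild type and 9.78, 9.58 and 9.69 on the mutant-labelled arrays. The groups lay far apart and the arrays of each group close together, with a difference of 1.47 (SE 0.09, adjusted p = 4.91e-04), or 2.78-fold. This was the only call among the wider lipase and lipid pathway lists that was kept whichever single array was left out. It went opposite to mag of the same family.

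CG3635, another acid lipase gene, fell from 5.79, 5.59 and 5.45 to 4.96, 4.87 and 4.94, a difference of -0.68 (SE 0.10, adjusted p = 0.0135). All its mutant-labelled values lay below the lower quartile of the arrays, where folds of dim probe sets are uncertain. Its call was lost without wild type replicate 2 or without any one of the mutant-labelled arrays (adjusted p between 0.0509 and 0.0674). The next smallest p-values of the family belonged to CG18530 (0.16, adjusted p = 0.517) and CG18284 (0.12, adjusted p = 0.628). CG18301 and CG18302, the neighbours of Lip4 on arm 2L, differed by 0.00 and 0.04. CG8093, named after its values were seen, differed by -0.11 (adjusted p = 0.935), by -0.46 without wild type replicate 1 (adjusted p = 0.186) and by -0.57 without both that array and Pof mutant replicate 2, when it was called (adjusted p = 0.0440).

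**Figure D2:**
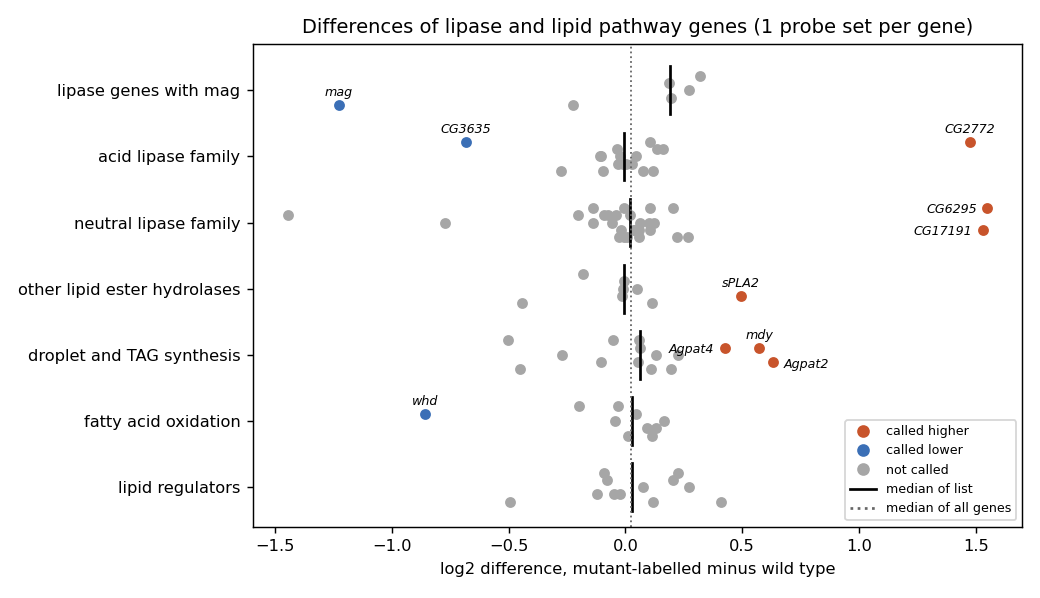
Log2 difference (mutant-labelled minus wild type) of each measured gene, 1 probe set a gene, in the lipase lists and 3 lists of lipid pathway genes; orange and blue points are called higher and lower, grey points are not called, black bars are list medians, the dotted line is the median of all genes (0.02), and the vertical scatter within a list carries no value. List medians stay between -0.01 and 0.19, and the 10 called genes lie on both sides.

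In the neutral lipase family, relatives of the mammalian pancreatic lipases, 2 of 29 measured genes rose and 0 fell. That is 6.90% called, against 4.09% of all genes, 2.65% higher and 1.44% lower. Of the 29, 7 lay below the lower quartile on every array. The 2 that rose belong to a run of 7 neighbouring lipase genes on arm 3R. Of that run 6 were measured and CG6277 was not analysed here. Genes of such a run can be close copies, and their probe sets may share signal, which was not tested. CG6295 read 6.17, 6.79 and 6.84 in wild type and 8.31, 8.30 and 7.83 on the mutant-labelled arrays, so the groups did not overlap. Its difference was 1.55 (SE 0.21, adjusted p = 0.0102), or 2.93-fold, and its call was lost without Pof mutant replicate 1 (adjusted p = 0.0571).

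CG17191, in the same run, read 4.88, 5.0 and 4.73 in wild type against 6.23, 6.96 and 6.02. Its wild type values lay below the lower quartiles, so the size of its fold, 2.89, is uncertain. The difference was 1.53 (SE 0.23, adjusted p = 0.0158), and the call was lost without wild type replicate 2 or 3 or Pof mutant replicate 1 (adjusted p between 0.0574 and 0.0763). Its neighbour CG17192 differed by 0.10 (adjusted p = 0.772).

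The other measured genes of the run were not called. CG6283 read 7.64, 9.38 and 9.37 in wild type and 7.07, 7.67 and 7.32 on the mutant-labelled arrays. Wild type replicate 1 lay among the mutant-labelled arrays, and the groups overlapped. The difference of -1.44 (SE 0.46, adjusted p = 0.195) was -2.02 without that array (SE 0.16, adjusted p = 7.73e-04), when CG6283 was called. CG6296, at the other end of the run, read 10.94, 10.95 and 10.97 against 11.12, 11.20 and 11.20, a difference of 0.22 (SE 0.06, adjusted p = 0.163). CG6271 stood high on 1 array only, wild type replicate 3 at 7.60, with the other 5 arrays between 5.49 and 5.81.

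**Figure D3:**
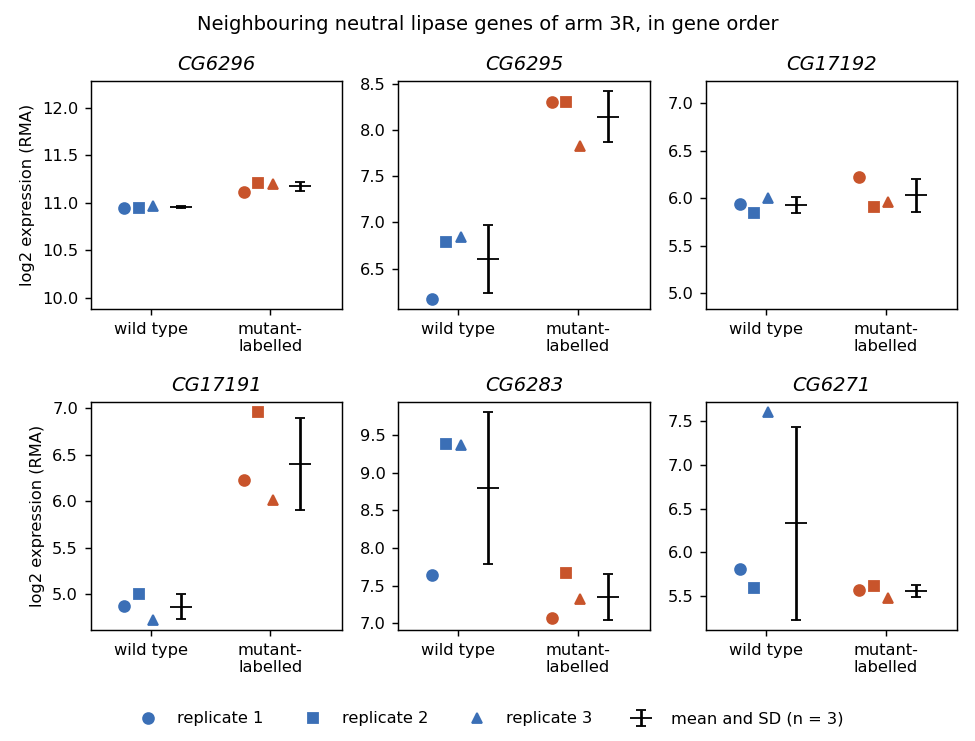
Log2 expression (RMA) of the 6 measured genes of the 3R lipase run on each array, in gene order, with wild type in blue, mutant-labelled in orange, symbols for replicates 1 to 3 and the mean with its SD (n = 3) in black; panels differ in their range on the vertical axis. CG6295 and CG17191 are higher on all 3 mutant-labelled arrays, and for CG6283 wild type replicate 1 (7.64) lies below the highest mutant-labelled array (7.67).

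Of 8 genes for other lipid ester hydrolases, 1 rose and 0 fell, which is 12.5% called against 4.09% of all genes. The secreted phospholipase gene sPLA2 read 8.27, 8.20 and 8.23 against 8.69, 8.66 and 8.83, with a difference of 0.50 (SE 0.07, adjusted p = 0.0158). That call was lost without wild type replicate 2 or 3 or Pof mutant replicate 3 (adjusted p between 0.0550 and 0.0923). GIIIspla2, a further phospholipase gene, differed by -0.44 (SE 0.14, adjusted p = 0.208). The genes nearest to bmm in function were not called: dob, its paralogue, differed by 0.05 (SE 0.12) and puml, related to the co-activator of the mammalian enzyme, by 0.11 (SE 0.10). The diacylglycerol lipase gene inaE differed by -0.18 on its brightest probe set (adjusted p = 0.448), and its other 4 probe sets ranged from -0.21 to 0.07.

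The genes that make and store triacylglycerol, the substrate of these lipases, were read next. Of 15 measured genes for lipid droplet proteins and triacylglycerol synthesis, 3 rose and 0 fell. That share, 20.0%, stands beside 4.09% of all genes, and the median difference was 0.06. All 3 encode acyltransferases of the synthetic pathway. Other acyltransferase genes of the list were not called, with smaller differences. These were Dgat2 (0.20), Agpat3 (0.13), Agpat1 (0.11), Gpat4 (0.05), mino (-0.05) and Mgat2 (-0.10). The gene mdy, for the enzyme that makes triacylglycerol from diacylglycerol, read 9.16, 9.23 and 9.16 against 9.63, 9.76 and 9.87. Its groups did not overlap, with a difference of 0.57 (SE 0.08, adjusted p = 0.0133).

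Agpat2 and Agpat4, for enzymes that make phosphatidic acid, rose by 0.63 (SE 0.09, adjusted p = 0.0153) and 0.43 (SE 0.08, adjusted p = 0.0386). Agpat2 read 9.61, 9.80 and 9.80 against 10.37, 10.48 and 10.24, and Agpat4 read 10.91, 11.07 and 11.12 against 11.50, 11.40 and 11.48. Neither overlapped between the groups. The calls of mdy and Agpat2 were lost without wild type replicate 2 or 3, that of Agpat2 also without Pof mutant replicate 1, and that of Agpat4 whichever array was left out (adjusted p between 0.0563 and 0.137). The list had 2 rises without wild type replicate 1, 0 without wild type replicate 2 and 0 without wild type replicate 3. It had 1 rise without Pof mutant replicate 1 and 2 without either of the other mutant-labelled arrays. Calls over all genes moved too. They numbered 536, 202 and 219 without wild type replicates 1, 2 and 3 in turn, and 255, 300 and 280 without Pof mutant replicates 1, 2 and 3.

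The lipid droplet coat genes did not pass. Lsd-1, the fly perilipin through which lipolysis at the droplet is controlled, read 11.54, 11.64 and 11.62 in wild type and 11.15, 10.88 and 11.25 on the mutant-labelled arrays. The groups did not overlap, and its difference of -0.50 (SE 0.10, adjusted p = 0.0538) was just outside the threshold. Among other settings it was called after cyclic loess (-0.52, adjusted p = 0.0427) and with array weights (-0.46, adjusted p = 0.0246). With any single array left out it was not called. The adjusted p then ran from 0.0589 without wild type replicate 1 (-0.53) to 0.210 without wild type replicate 2 (-0.48). Lsd-2, the second perilipin, read 11.04, 11.13 and 11.09 against 10.93, 10.15 and 10.82, and Pof mutant replicate 2 carried most of its difference of -0.45 (SE 0.19, adjusted p = 0.371), which was -0.21 without that array.

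**Figure D4:**
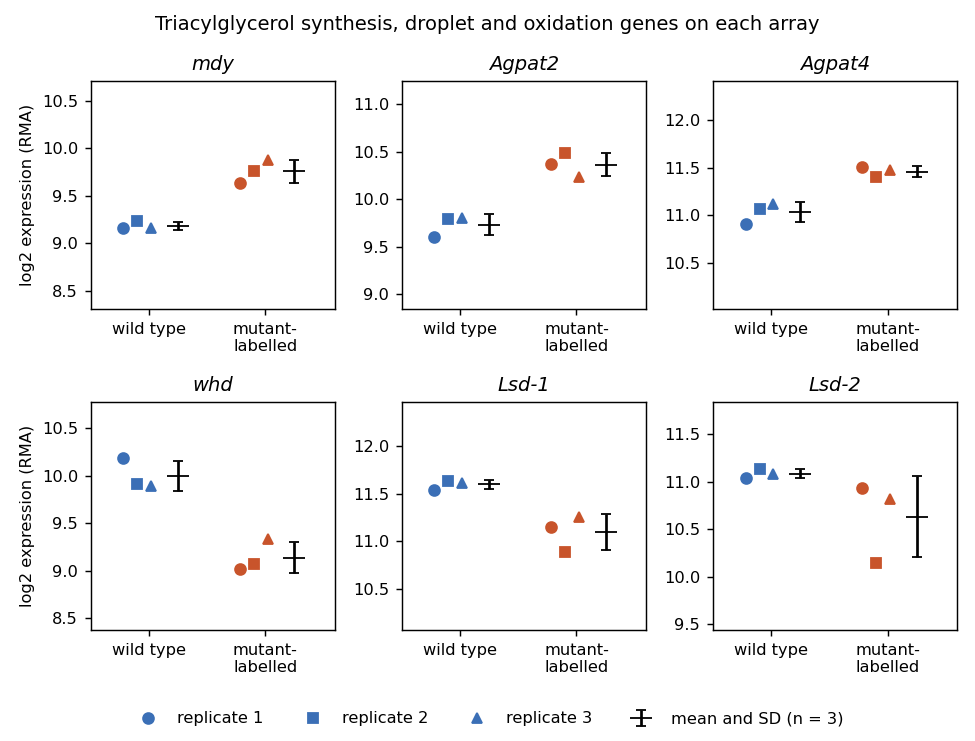
Log2 expression (RMA) of mdy, Agpat2, Agpat4, whd, Lsd-1 and Lsd-2 on each array, with wild type in blue, mutant-labelled in orange, symbols for replicates 1 to 3 and the mean with its SD (n = 3) in black; panels differ in their range on the vertical axis. The first 3 are higher and whd, Lsd-1 and Lsd-2 lower on all 3 mutant-labelled arrays, but the last 2 were not called.

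Fatty acids released by lipases are burned in mitochondria. Of 10 measured genes of fatty acid oxidation, 0 rose and 1 fell (10% called, against 4.09% of all genes). That gene was whd, for the carnitine palmitoyltransferase that admits fatty acids into mitochondria. It read 10.18, 9.91 and 9.89 in wild type and 9.02, 9.07 and 9.33 on the mutant-labelled arrays. The groups did not overlap, with a difference of -0.86 (SE 0.12, adjusted p = 0.0112), or 1.81-fold lower. Its call was lost without Pof mutant replicate 1 (adjusted p = 0.0524). A second, dimmer whd probe set went from 5.35 ± 0.03 to 5.48 ± 0.01 (SD, n = 3), a difference of 0.13 (SE 0.06, adjusted p = 0.457), so the probe sets of the gene disagree. Their mean differed by -0.37 (adjusted p = 0.0470). The oxidation genes CPT2 and Mtpbeta differed by 0.05 and 0.01, and yip2 by -0.20 (adjusted p = 0.315).

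The list of lipid regulators, which also holds the insulin and Akh target tobi, showed 0 calls among 12 measured genes in limma. By the brightest probe set of each gene, 1 of them, Akh, had an unadjusted p under 0.05. For AkhR that probe set differed by -0.12 (adjusted p = 0.853). A second, dimmer AkhR probe set differed by 0.27 (unadjusted p = 0.0113, adjusted p = 0.168) without overlap of the groups, so they disagree. Hr96, the receptor that activates mag, read 7.90, 8.18 and 8.16 in wild type and 7.96, 8.45 and 8.17 on the mutant-labelled arrays. Its groups overlapped, with a difference of 0.12 (SE 0.14, 95% interval -0.21 to 0.45, adjusted p = 0.820). The gene foxo, for a transcription factor active in starvation, differed by -0.49 (SE 0.23, 95% interval -1.03 to 0.04, adjusted p = 0.414). The gene of the adipokinetic hormone, Akh, which sets off fat breakdown, read 8.50, 8.63 and 8.79 against 9.17, 8.93 and 9.05. That is a difference of 0.41 (SE 0.10, adjusted p = 0.0992) without overlap of the groups, and InR differed by 0.27 (adjusted p = 0.399).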

How the data were processed

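The deposited values are log2 expression per probe set, made by the authors with RMA, per the submitters' processing notes (no version or settings stated). RMA commonly normalizes quantiles across arrays, which would remove a shift of most genes, and compresses folds of dim probe sets. No detection calls were used, and the number of arrays limits precision.

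Of 18952 probe sets, 183 controls were left out. Of the remaining 18769, 13647 had 1 gene symbol in the platform annotation, 13544 of them with an ID in the reference table (Release 6 plus ISO1 MT), while 402 had several and 4720 none. That table served for names, arms and gene order. A gene stands by its brightest single-gene probe set. All 18769 entered a single fit in limma 3.58.1 (R 4.3.3; lmFit, eBayes, no covariates, Benjamini-Hochberg). Whether separate pools of larvae were reared apart is not stated, so p-values measure the spread between these pools.

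In 5 simulated runs with 200 changed probe sets, 59.2% of the 1.5-fold and 85.8% of the 2-fold changes were called, and false calls averaged 6.2. The noise was normal and drawn apart for each value, with the pooled SD of its probe set. It held no outlying array, so these rates need not hold for the real arrays. Alternatives covered filtering, normalization, variance models, the replicate number as a block and arrays left out.

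Members and lists were chosen with earlier results of these data known, so their shares of called genes are descriptions and no tests. Lists were written from general knowledge. 1 listed ID proved a synonym of another and was counted once. Named genes are the members, Pof, called genes and genes with the smallest p-values of each list, neighbours of mag and genes with the most similar profile; examples beyond these, among them dob, CPT2, Mtpbeta, CG6271, CG17192, CG18301, CG18302, Lsd-2 and Hr96, were picked after their values were seen.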

Additional observations from a re-analysis of the deposited data

How the results depend on the processing

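Differences of the 6 lipase genes kept their sign under all 17 alternatives that could be run, except that of Lip3, which was -0.0902 when wild type 1 and Pof mutant 2 were both left out, a setting added with the data known; the 60% filter on dim probe sets left Lip3 out. None of Lip1, Lip2, Lip3, Lip4 and bmm was called under any of them. The only one of the 6 lipase genes counted below is thus mag. As mag was chosen by its difference, that count is no test of it. With single arrays left out, calls ranged from 202 to 536 over all genes (490 with all arrays), from 0 to 1 among the lipase genes, from 2 to 6 among the other lipase genes and from 1 to 3 among the lipid pathway genes. Without eBayes they numbered 55, 0, 1 and 0. Array weights gave 840 over all genes. The filter gave 3 among the other lipase genes, as it left out the dim genes CG3635 and CG17191. Without _s, _x and _a probe sets 1 lipid pathway gene was called. That setting left out mdy and Agpat4, which have no other single-gene probe set. It read whd by its dim probe set, with a difference of 0.13. Causes were not tested beyond this. Deviations of same-numbered arrays from their group means correlated at 0.18, 0.13 and 0.03, and those of the other pairs at -0.19 to 0.15. With so few arrays this cannot decide whether same-numbered arrays were handled together. With the replicate number as a block, 476 genes were called, 1 lipase gene, 5 other lipase genes and 3 lipid pathway genes; the call of Agpat4 was lost. No depth or background signal was given to set a limit for dim genes.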
